A study of Mus musculus with 2 samples.

Results

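The genes that make, break down and read out cyclic nucleotides were examined in nuclei of the mouse paraventricular hypothalamus (PVH), a brain region that controls pituitary hormone release and appetite. The 52 genes were taken by name from the 31053 gene rows of the count table: 9 adenylyl cyclases (Adcy), 9 guanylyl cyclases (Gucy1 and Gucy2), 26 genes whose symbol starts with Pde and a digit, 6 subunits of cAMP-dependent protein kinase (PKA; Prkar and Prkac) and the 2 cGMP-dependent protein kinases (PKG; Prkg1 and Prkg2). The name rule also took in Pde4dip, which encodes a partner of Pde4d, Pde6d, which encodes a prenyl-binding chaperone, and Pde12, which encodes an enzyme that acts on RNA. These 3 do not cut cyclic nucleotides, and they are examples, not a full list of such genes among the 26.

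Nuclei came from 17 mice aged 4 weeks. All groups carried Sim1-Cre, which is active in most PVH neurons, and a Sun1-GFP reporter that tags the nuclear envelope of cells with a history of Cre, and GFP-positive nuclei were sorted. The genotypes were Sim1-Cre; Sun1-GFP in 7 mice, the same with Otpfl/+ (a floxed allele of the transcription factor Otp over a normal one) in 4 mice, and the same with OtpQ153R/+ in 6 mice. In the floxed group Otp loss is limited to Cre-expressing cells, while the Q153R allele is not tied to Cre. The mice of each genotype were pooled under 1 hashtag, called Ctrl, KD or Q153R in the count table, and the 3 pools were run as 1 gene-expression library, so there is no replicate of a genotype and no p-value is given. The tag name KD is not explained in the labels and was taken for the floxed genotype because the other names are accounted for.

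Cyclic AMP is made by adenylyl cyclases that G proteins and, for some isoforms, calcium switch on or off. Cyclic GMP is made by soluble guanylyl cyclases that bind nitric oxide, and by membrane guanylyl cyclases, some of which bind peptides. Phosphodiesterases (PDEs) end both signals, and PKA, PKG, cyclic-nucleotide-gated channels and Epac proteins read them out. In PVH neurons these messengers act downstream of the receptors through which peptides and transmitters set hormone release and feeding.

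The table held 6173 barcodes and 42833533 gene UMIs (molecule counts), and 6157 barcodes passed filters on gene number and mitochondrial share. Of these, 1124 (18.3%) carried more than 1 hashtag and 129 carried none, and both kinds were left out. Another 132 nuclei with glial or vascular marker levels were set aside as non-neuronal, which left 4772 neurons with 27397673 UMIs and a median of 5311.5 UMIs per nucleus (565 to 29974). By pool, 1898, 1300 and 1574 neurons were labelled Ctrl, KD and Q153R. Levels below are UMIs summed over nuclei per 1000000 gene UMIs (CPM), with 95% exact intervals that cover counting error only. Nuclei of 1 pool are not replicates. The pools show how far a level varied between 3 sets of mice that also differed in genotype.

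Neurons were sorted into classes by the level of a hormone or transmitter marker, so each class is a range of marker level and not a cell type. The Oxt class (oxytocin) held 151 neurons, the Avp class (vasopressin) 214, the Sst class (somatostatin) 247, the Trh class 225, the Crh class 146 and the GABA class (summed Gad1, Gad2 and Slc32a1) 219, while 44 met more than 1 cut and 3526 met none. The marker stood at 8981 CPM of Oxt, 11463 of Avp, 2470 of Sst, 781 of Trh, 864 of Crh and 1005 of the GABA genes in its own class. Many nuclei lay close to the cuts: within 1.5-fold inside and outside there were 15 and 50 for Oxt, 13 and 46 for Avp, 59 and 70 for Sst, 87 and 168 for Trh, 49 and 104 for Crh, and 129 and 182 for the GABA genes. The median nucleus of the Oxt class held 186 CPM of Avp and that of the Avp class 149 CPM of Oxt, the median nucleus of the Crh class held 235 CPM of Avp, that of the Trh class 113 CPM of Oxt and that of the Sst class 33.4 CPM of Avp. The other classes' markers had a median of 0. Non-neuronal nuclei held 307 CPM of Oxt and 325 CPM of Avp in sum, with a median of 0 per nucleus for both.

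Sim1, the gene whose promoter drives Cre, stood at 349 to 913 CPM in the peptide classes, at 424 CPM in neurons of no class, at 113 CPM in the GABA class and at 30.5 CPM in non-neuronal nuclei. The neuronal marker list (Snap25, Syt1, Rbfox3, Nrxn3) summed to 1639 CPM in the Avp class and to 12250 CPM in the GABA class, against 2716 CPM in non-neuronal nuclei. Astrocyte markers summed to 22.3 CPM in the Oxt class and to 1.66 CPM in the Avp class, against 1510 CPM in non-neuronal nuclei.

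Promoter sequences were searched for the cAMP response element (CRE), the site bound by CREB-family factors, which PKA phosphorylates. The CRE was chosen because it is the regulatory motif tied most directly to these genes' own product. In RefSeq (GRCm38.p6) 41 of the 52 genes had at least 1 window, 81 windows in all, and the 250 bases before each start were searched on both strands for TGACGTCA and for the half-site TGACG, which every CRE also contains. A CRE was found in 1 of the 41 genes (2.44%), against 1.77% of all genes with a window, and a half-site in 14 (34.1%, against 19.8%). Counted by window, which does not favour genes with many starts, the half-site shares were 19.8% and 17.8%. The gene with the CRE was Prkar1a, a regulatory subunit of PKA, where the motif begins 49 bases before the start. The sequences below are this window, cut off before the first annotated exon base, and 1 window each of Pde10a and Prkg1, a pair whose levels ran opposite to each other across neurons. All 3 are on GRCm38.p6, 5′ to 3′ along the gene, with CRE and half-site matches in capitals. They lie at chr11:109650699-109650920 (plus strand), chr17:8849735-8849984 (plus strand) and chr19:31664371-31664620 (minus strand), each inside the span of its gene, at an internal start site.
Prkar1a: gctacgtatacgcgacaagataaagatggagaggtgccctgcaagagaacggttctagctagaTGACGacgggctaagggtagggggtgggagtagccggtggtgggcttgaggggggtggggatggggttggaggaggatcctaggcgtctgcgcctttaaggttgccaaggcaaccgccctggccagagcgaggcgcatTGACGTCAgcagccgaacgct
Pde10a: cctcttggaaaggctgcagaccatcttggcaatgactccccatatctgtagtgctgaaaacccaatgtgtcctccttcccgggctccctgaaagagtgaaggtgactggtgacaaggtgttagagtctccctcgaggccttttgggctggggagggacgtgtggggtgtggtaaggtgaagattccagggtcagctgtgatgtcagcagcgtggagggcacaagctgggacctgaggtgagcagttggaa
Prkg1: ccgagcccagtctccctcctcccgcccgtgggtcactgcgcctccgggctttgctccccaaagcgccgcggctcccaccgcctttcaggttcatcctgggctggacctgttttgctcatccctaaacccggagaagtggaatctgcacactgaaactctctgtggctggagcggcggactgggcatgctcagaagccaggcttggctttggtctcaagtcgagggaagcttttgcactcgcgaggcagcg
The Prkar1a window holds the palindromic CRE and, further upstream, a separate half-site. The Pde10a and Prkg1 windows hold neither string.

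The 52 genes together took 261301 UMIs, 0.954% of all neuron UMIs, or 9537 CPM. The Pde-named genes held 71.8% of these UMIs, PKG 10.7%, adenylyl cyclases 7.08%, PKA subunits 6.49% and guanylyl cyclases 4%. Over classes the summed level ran from 8723 CPM in the Trh class to 14477 CPM in the Crh class, with 13499 CPM in the Oxt class and 12675 CPM in the Avp class, 8956 CPM in neurons of no class and 9420 CPM in non-neuronal nuclei. In 38 of the 52 genes at least 100 UMIs were counted over neurons: 8 of the 9 adenylyl cyclases, 3 of the 9 guanylyl cyclases, 19 of the 26 Pde-named genes and all 8 kinase subunits. No UMI of Adcy4 was counted, which allows a level of up to 0.135 CPM. The other 13 genes below 100 UMIs held 4 to 80 UMIs each. They include the membrane guanylyl cyclases Gucy2c (10 UMIs), Gucy2d (8), Gucy2e (43), Gucy2f (17) and Gucy2g (4), the cGMP-specific Pde5a (47) and the dual-specificity Pde2a (80), whose gene overlaps another measured gene on the same strand. Guanylyl cyclases whose symbol does not start with Gucy1 or Gucy2 lie outside the name rule and are not counted among the 52 genes.

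Pde4d, a cAMP-specific enzyme of the rolipram-sensitive family, led at 2161, 2233 and 2072 CPM in the Ctrl, KD and Q153R pools and had a UMI in 96.5% of neurons. Pde10a, which cuts both cyclic nucleotides, stood at 1528, 1536 and 1544 CPM, and Pde4b, a second cAMP-specific PDE4, at 1271, 1468 and 1373 CPM. Prkg1 was the fourth at 1032, 994 and 943 CPM. These 4 genes held 63.4% of the UMIs. Pde1a, a calcium/calmodulin-activated enzyme, followed at 349 CPM over all neurons, then Pde4dip at 323 CPM and the soluble cyclase subunit Gucy1a2 at 302 CPM. Pde8b, a cAMP-specific enzyme with high affinity, stood at 273 CPM and Adcy2, a cyclase that G-protein beta-gamma subunits stimulate, at 218 CPM.

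The order by CPM went with gene length: across the 38 genes Spearman's rho of the 2 was 0.669, a description across genes with no test. Per kilobase of gene, Prkar1a came first at 4.00 CPM per kb, then Pde10a at 3.33, Pde4b at 2.62, the catalytic subunit Prkacb at 2.50 and the catalytic subunit Prkaca at 2.25. Pde4d, whose gene spans 1504 kb, ranked 9 at 1.44 CPM per kb, and Prkg1, over 1201 kb, ranked 20 at 0.829. Non-neuronal nuclei held more Pde4b (3886 CPM), Pde7b (690 against 166 CPM in neurons) and Pde8a (88.8 against 12.8 CPM) and less Pde10a (589 CPM), Pde4d (1421 CPM) and Prkg1 (602 CPM) than neurons.

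**Figure D1:**
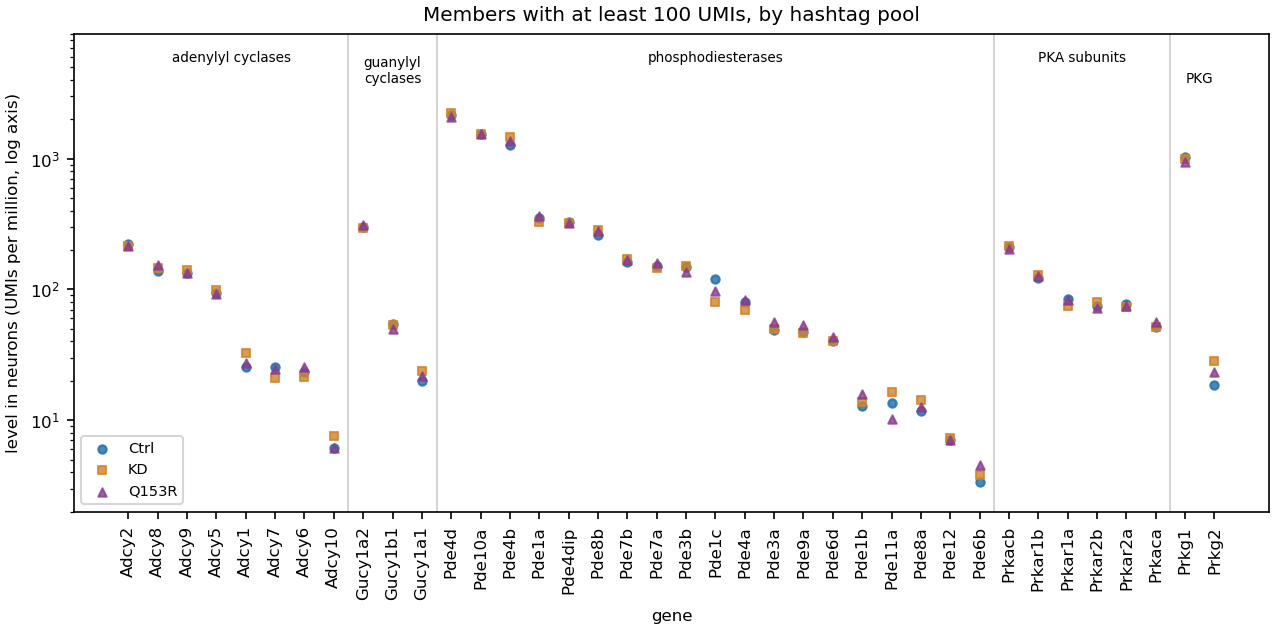
Level of each of the 38 genes with at least 100 UMIs (CPM, log axis) in the neurons of the Ctrl, KD and Q153R pools, ordered within each family by level. The 3 pools nearly coincide for most genes, and the points of Pde1c and Prkg2 are spread most visibly among the genes above 15 CPM.

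To ask which cyclic-nucleotide genes set apart neurons of each marker class, each class was compared with all other neurons. A gene was called where it was past 1.5-fold in the same direction over all nuclei and in each of the 3 pools. Over 38 genes and 6 classes, 17 of 228 pairs were called higher (7.46%, against 2.81% of all gene-by-class pairs tested) and 28 lower (12.3%, against 8.38%). Of the 38 genes, 23 were called in at least 1 class (60.5%, against 40.9% of the 12422 genes tested), 12 of them higher somewhere (31.6%, against 14.5%) and 16 lower somewhere (42.1%, against 33.4%). The cyclic-nucleotide genes were counted more deeply than the rest, with a median of 2177.5 UMIs against 655.0. Among genes with at least 1000 UMIs, 8.64% of 162 pairs were higher against 2.92%, and 9.88% were lower against 6.71%, so the higher share was above the background at both depths. Of the 28 lower calls, 9 rest on at most 3 UMIs in the class and 3 have an interval that includes 1 (Adcy10 and Pde6b in the Oxt class, Pde6b in the Sst class), whereas no higher call has fewer than 17 UMIs or an interval that includes 1.

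**Figure D2:**
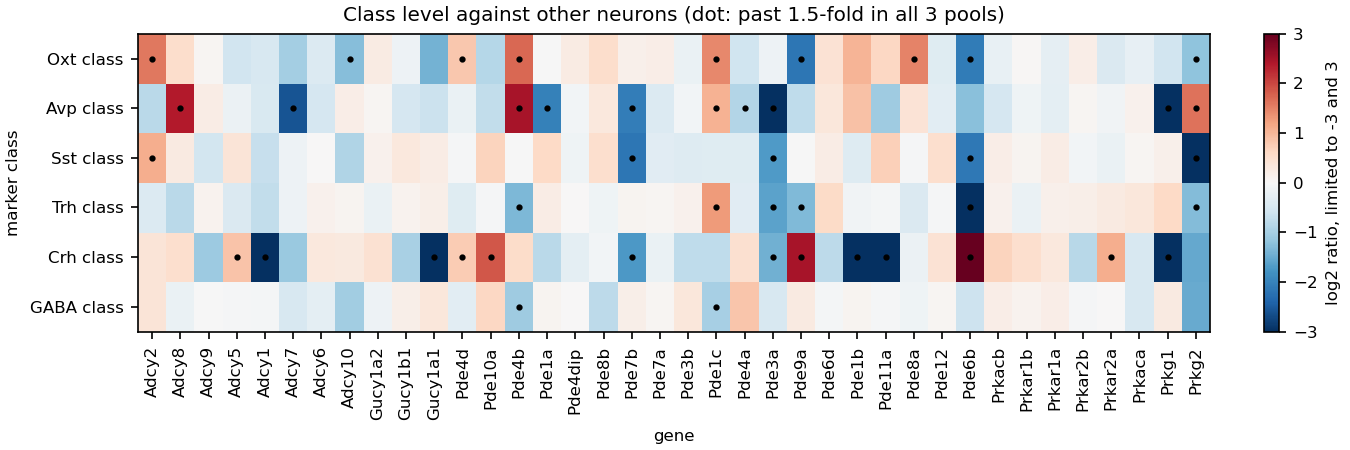
Log2 ratio of each of 38 genes (columns) in each marker class (rows) to all other neurons, on a colour scale limited to -3 and 3, with a dot where the gene was past 1.5-fold in all 3 pools. The Crh row carries 13 dots and the Avp row 10, while the GABA row carries 2.

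Among adenylyl cyclases, Adcy8 and Adcy2 marked different neurons. Adcy8, a calcium/calmodulin-stimulated cyclase, stood at 718, 530 and 640 CPM in the Avp class of the Ctrl, KD and Q153R pools, against 116, 125 and 127 CPM in the other neurons of each pool. The ratio was 5.18 (4.78 to 5.61), and the call rule requires a difference in every pool. With every nucleus thinned to 2000 UMIs, 68.7% of Avp-class nuclei had an Adcy8 UMI against 16.5% of neurons of no class and 18.8% of non-neuronal nuclei, and without thinning 85% and 31.8% and 32.6%. The median depths were 5410.5 UMIs in the Avp class, 5509.5 in neurons of no class and 2454.5 in non-neuronal nuclei, and 19 Avp-class nuclei, 257 of no class and 47 non-neuronal nuclei were too shallow to be thinned.

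Adcy2 stood at 565, 661 and 617 CPM in the Oxt class against 206, 200 and 198 CPM in other neurons (ratio 2.99, 2.75 to 3.25), and at 388, 588 and 388 CPM in the Sst class (ratio 2.14, 1.94 to 2.34). In the Avp class its level was 127 CPM, below the other neurons but not in the called set. Adcy5, a cyclase that calcium inhibits, reached 170, 173 and 160 CPM in the Crh class against 91.3, 97.8 and 90.6 CPM (ratio 1.80, 1.46 to 2.19). Lower calls were Adcy7, with 5 UMIs in the Avp class (ratio 0.167, 0.0542 to 0.393), the calcium-stimulated Adcy1, with 2 UMIs in the Crh class (0.110, 0.0133 to 0.399), and the bicarbonate-stimulated Adcy10, with 3 UMIs in the Oxt class (0.415, 0.0848 to 1.23).

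The soluble guanylyl cyclase works as an alpha and a beta subunit bound to each other. Gucy1a2, the most abundant alpha subunit here, was between 267 and 410 CPM in all 6 classes and was called in none of them. Gucy1b1, the obligate beta subunit, lay between 27.1 CPM in the Crh class and 64.5 CPM in the Sst class and was called in none. The alternative alpha subunit Gucy1a1 had no UMI among the 146 Crh-class nuclei, against 20.7, 24.3 and 22.4 CPM in the other neurons of the 3 pools. Set against a floor of 3 counts over the class (4.78 CPM), it was at least 4.66-fold lower there.

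The largest ratios among well-counted phosphodiesterases belonged to Pde4b and Pde9a. Pde4b stood at 6130, 6657 and 6088 CPM in the Avp class of the 3 pools against 1083, 1204 and 1113 CPM in other neurons (ratio 5.57, 5.43 to 5.71), and at 3547, 5469 and 3801 CPM in the Oxt class against 1157, 1327 and 1281 CPM (3.30, 3.19 to 3.40). It was lower in the Trh class, at 544, 539 and 556 CPM (0.392, 0.362 to 0.424), and in the GABA class, at 672, 671 and 663 CPM (0.481, 0.448 to 0.515). Thus the Oxt and Avp classes sat above, and the Trh and GABA classes below, the range of the remaining neurons in every pool. Non-neuronal nuclei also held Pde4b at 3886 CPM. The summed markers of astrocytes, oligodendrocytes and oligodendrocyte precursors stood at 1.66, 6.64 and 4.15 CPM in the Avp class and at 22.3, 0.931 and 0.931 CPM in the Oxt class, against 1510, 1239 and 317 CPM in non-neuronal nuclei. Of the 6 classes, the Avp class had the highest oligodendrocyte and precursor sums (8 and 5 UMIs) and the Oxt class the highest astrocyte sum (24 UMIs). Their part in the Pde4b levels was not tested.

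Pde9a, a cGMP-specific enzyme of high affinity, and Pde10a were both called higher in the Crh class. Pde10a stood there at 5232, 6276 and 4395 CPM against 1420, 1443 and 1461 CPM in other neurons (ratio 3.61, 3.48 to 3.74). It also stood at 2175, 2772 and 2323 CPM in the Sst class and at 2108, 2421 and 2632 CPM in the GABA class, and was called in neither. After thinning, 99.3% of Crh-class nuclei had a Pde10a UMI, against 68.8% of neurons of no class and 31.8% of non-neuronal nuclei, and without thinning 100%, 83.8% and 36.4%. Pde9a stood at 212, 202 and 310 CPM in the Crh class against 41.8, 43.8 and 45.6 CPM (5.53, 4.64 to 6.56), and was lower in the Oxt class with 12 UMIs (0.223, 0.115 to 0.391) and in the Trh class with 23 (0.401, 0.254 to 0.605). Its thinned share was 36.5% in the Crh class, 8.99% in neurons of no class and 9.41% in non-neuronal nuclei. The Crh class was also higher in Pde4d, at 3436, 4165 and 3506 CPM (1.71, 1.64 to 1.78), and in Pde6b, a cGMP enzyme best known from rod photoreceptors, at 27.7, 21.6 and 29.96 CPM (8.42, 4.69 to 14.3). The Pde6b value rests on 17 UMIs in 13 nuclei, and after thinning to 2000 UMIs it was 3.57.

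Pde1c, a calcium/calmodulin-activated enzyme that cuts cAMP and cGMP, was higher in 3 classes. Its levels in the Ctrl, KD and Q153R pools were 233, 204 and 345 CPM in the Oxt class (ratio 2.70, 2.37 to 3.06), 263, 187 and 217 CPM in the Trh class (2.44, 2.14 to 2.77) and 234, 173 and 192 CPM in the Avp class (2.07, 1.81 to 2.36). In the GABA class it was lower, at 62.6, 23.5 and 57.2 CPM (0.502, 0.385 to 0.645), but with all marker cuts doubled that ratio was 0.805. Pde8a was higher in the Oxt class at 37.3, 29.2 and 31.0 CPM (2.82, 1.94 to 3.98; 4.37 after thinning). Non-neuronal nuclei held 88.8 CPM of Pde8a, and its thinned share was 9.79% (5.46 to 15.9) in the Oxt class and 16.5% (9.31 to 26.1) in non-neuronal nuclei, so this share does not separate from the non-neuronal one at this depth. Pde4d in the Oxt class reached 3722, 3585 and 3681 CPM (1.75, 1.70 to 1.81).

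Several phosphodiesterases were low in more than 1 class. Pde3a, an enzyme that cGMP inhibits, was lower in the Avp (7 UMIs, ratio 0.109, 0.0436 to 0.225), Sst (0.306, 0.181 to 0.485), Trh (0.329, 0.200 to 0.510) and Crh classes (0.367, 0.189 to 0.643). Pde7b, a cAMP-specific enzyme, was lower in the Sst (0.224, 0.162 to 0.302), Avp (0.236, 0.174 to 0.313) and Crh classes (0.301, 0.206 to 0.426); with marker cuts doubled the Avp and Sst ratios were 0.112 and 0.135. In the Avp class Pde1a stood at 101, 45.9 and 118 CPM against 363, 344 and 377 CPM in other neurons (0.246, 0.201 to 0.298), and Pde4a was also lower (0.543, 0.404 to 0.715). In the Crh class Pde1b and Pde11a had 1 UMI each (0.111, 0.00281 to 0.625, and 0.115, 0.00291 to 0.647). Pde6b had 1 UMI each in the Oxt (0.235, 0.00590 to 1.34) and Sst classes (0.226, 0.00566 to 1.28) and none in the Trh class, where the floor of 3 counts makes it at least 1.54-fold lower. Pde8b, which lies close to Otp on chromosome 13, and Pde3b, Pde7a and Pde4dip were called in no class.

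Of the 6 PKA subunits, 1 was called in any class, against 40.9% of all tested genes. This was Prkar2a, at 198, 123 and 115 CPM in the Crh class against 73.7, 72.3 and 73.1 CPM (ratio 2.12, 1.71 to 2.60). Prkacb, the catalytic subunit with the highest level, stood between 149 CPM in the Avp class and 328 CPM in the Crh class, and Prkar1a between 66.4 CPM in the Avp class and 100.4 CPM in the Crh class.

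The 2 PKG genes ran apart. Prkg1, the form known from smooth muscle and many neurons, stood at 76.3, 66.2 and 212 CPM in the Avp class of the Ctrl, KD and Q153R pools against 1071, 1042 and 983 CPM in other neurons (ratio 0.114, 0.0965 to 0.135). In the Crh class it stood at 114, 93.7 and 140 CPM (0.116, 0.0910 to 0.146). In the Avp class the Q153R pool was the highest, and without that pool the ratio was 0.0674. Among nuclei called with the stricter hashtag rule it was 0.0597. In the Crh class the ratio moved to 0.269 with marker cuts halved and to 0.0743 with each nucleus weighted equally. Only 31 of the 214 Avp-class nuclei held a Prkg1 UMI. After thinning, the share was 9.23% in the Avp class and 13.1% in the Crh class, below the 31.8% of non-neuronal nuclei and 62.2% of neurons of no class. The non-neuronal share, being above those of these 2 classes, cannot serve as their background level. Whether Prkg1 in these 2 classes was above background was not tested.

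Prkg2, a membrane-bound kinase, showed the reverse in vasopressin-rich neurons. It stood at 59.1, 61.1 and 76.4 CPM in the Avp class against 16.9, 26.9 and 20.6 CPM in other neurons (ratio 3.12, 2.43 to 3.95). It was lower in the Sst class with 2 UMIs (0.0748, 0.00904 to 0.271), in the Trh class with 11 (0.406, 0.202 to 0.731; 0.124 with marker cuts doubled) and in the Oxt class with 11 (0.436, 0.216 to 0.785; 0.230 with marker cuts doubled). The thinned share in the Avp class was 11.8% (7.63 to 17.2), against 3.7% in neurons of no class and 7.06% (2.63 to 14.7) in non-neuronal nuclei, so this share does not separate from the non-neuronal one at this depth.

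**Figure D3:**
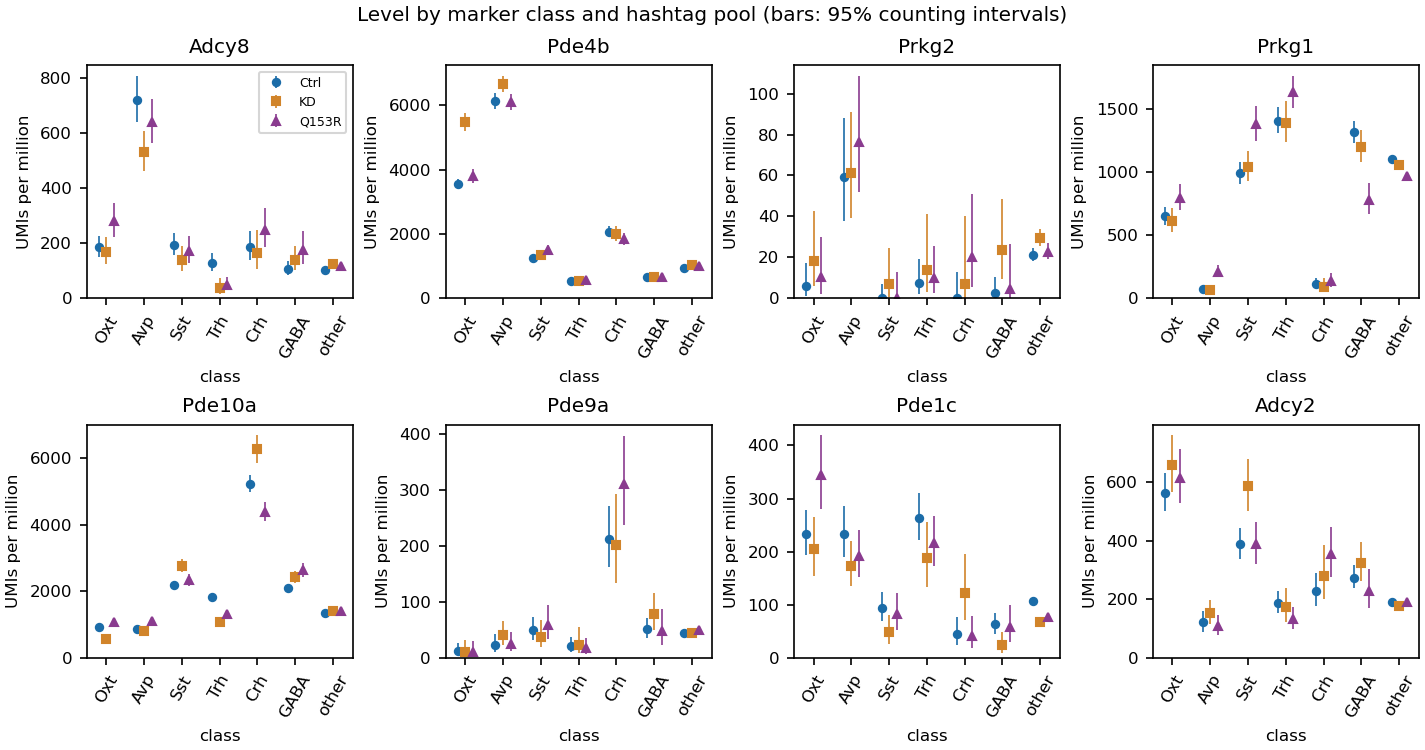
Levels (CPM, linear axes from 0) of 8 genes by marker class and pool, with 95% counting intervals as bars. Adcy8 and Prkg2 peak in the Avp class, Pde4b in the Avp and Oxt classes, and Pde10a and Pde9a in the Crh class. Prkg1 is lower in the Avp and Crh classes than in the others in all 3 pools, and reaches 212 CPM in the Avp class of Q153R.

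By class, the calls divided as follows. The Oxt class had 5 higher (13.2%, against 4.02% of all tested genes) and 4 lower (10.5%, against 7.17%), and the Avp class 4 higher (10.5%, against 3.52%) and 6 lower (15.8%, against 11.1%). The Crh class had 6 higher (15.8%, against 4.38%) and 7 lower (18.4%, against 18.8%), so its lower share is that of the background. The Sst class had 1 higher (2.63%, against 2.5%) and 4 lower (10.5%, against 6.79%), and the Trh class 1 higher (2.63%, against 1.44%) and 5 lower (13.2%, against 2.97%). The GABA class had 0 higher (against 0.982%) and 2 lower (5.26%, against 3.57%). The median log2 ratio of the 38 genes was -0.15 in the Oxt, -0.24 in the Avp, -0.01 in the Sst, -0.03 in the Trh, -0.19 in the Crh and -0.02 in the GABA class. Over all tested genes the medians were 0.01, -0.03, -0.03, 0.04, -0.37 and -0.02. Relative to the shifted median of the Crh class (median-of-ratios scaling), Pde10a was 4.53, Pde9a 6.94, Prkar2a 2.65 and Adcy5 2.25.

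Genes upstream and downstream of the cyclases were followed through lists of related genes. Of the PKA inhibitors and anchors (13 of 16 tested), Pkib, which inhibits PKA, was higher in the Oxt class at 186, 164 and 217 CPM (ratio 4.23, 3.62 to 4.91) and in the Sst class (1.996, 1.62 to 2.43), and the anchor Akap12 in the Oxt (2.28, 1.85 to 2.79) and Avp classes (2.39, 1.97 to 2.89). The inhibitor Pkia was lower in the Crh class (0.395, 0.292 to 0.523). Lower calls on 1 or 2 UMIs were Akap5 in the Oxt (0.161, 0.00405 to 0.911) and Sst classes (0.311, 0.0373 to 1.14) and Akap1 in the Crh class (0.181, 0.0218 to 0.657). Of the nitric oxide and natriuretic peptide genes (4 of 9 tested), Nos1, the neuronal nitric oxide synthase, was higher in the Oxt class at 122, 110 and 138 CPM against 32.9 CPM in all other neurons (3.73, 3.08 to 4.49) and lower in the Avp class with 9 UMIs (0.197, 0.0898 to 0.376). Npr3, the clearance receptor for natriuretic peptides, was higher in the Crh class at 52.0, 28.8 and 140 CPM (6.48, 4.66 to 8.82), lower in the Oxt (3 UMIs; 0.206, 0.0424 to 0.608) and Trh classes (0.257, 0.0696 to 0.663), and without a UMI in the Avp class.

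Among the other effectors (8 of 12 tested), 2 were lower in the Oxt class, 3 lower in the Avp class, 1 higher in the Trh class, 1 higher and 2 lower in the Crh class and 2 lower in the GABA class. Of all tested genes, 7.17% were lower in the Oxt, 11.1% in the Avp, 18.8% in the Crh and 3.57% in the GABA class. The higher shares were 1.44% in the Trh and 4.38% in the Crh class. These shares also apply to the CREB family and G protein lists below, and no list was tested against them. Hcn2, a channel that cAMP shifts, was lower in the Crh class (0.362, 0.145 to 0.749), and its relative Hcn4 had no UMI there. Rapgef4, which encodes the cAMP sensor Epac2, was lower in the Oxt class (0.387, 0.326 to 0.456), and Rapgef3, which encodes Epac1, had no UMI in the Avp class. The channel subunit Cngb1 was higher in the Trh class (2.89, 1.90 to 4.23) and lower in the GABA class with 3 UMIs (0.245, 0.0503 to 0.725), and its relative Cnga3 was lower in the Oxt, Avp and GABA classes on 1 UMI each, with intervals that include 1. In the CREB family (6 of 6 tested) Crem was higher in the Crh class (1.81, 1.40 to 2.31) and there was no other call. Of the G protein alpha subunits (7 of 7 tested), 2 were lower in the Oxt class, 1 was lower in the Avp class, and 1 was higher and 1 lower in the Crh class. Among these, Gnai1, an inhibitor of adenylyl cyclase, was lower in the Oxt (0.282, 0.197 to 0.391) and Avp classes (0.463, 0.357 to 0.590), and Gnaz, of the same inhibitory family, in the Crh class (0.398, 0.182 to 0.759).

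To ask whether the genes differed with Otp genotype, the pools were compared over the neurons below the GABA cut, 1766, 1239 and 1516 nuclei with 10313607, 8060415 and 7679747 UMIs in Ctrl, KD and Q153R. Both comparisons share the Ctrl nuclei. The summed level of each family hardly moved: Pde-named genes stood at 6779, 6975 and 6793 CPM, adenylyl cyclases at 670, 679 and 674 CPM, PKA subunits at 618, 619 and 609 CPM, guanylyl cyclases at 385, 377 and 383 CPM and PKG at 1037, 1013 and 976 CPM. Of 37 genes with at least 100 UMIs in KD and Ctrl, 2 were higher by over 25% (5.41%, against 4.13% of all tested genes) and 2 lower by over 20%, the same fold (5.41%, against 8.03%), with ratios from 0.652 to 1.47. Of 37 in Q153R and Ctrl, 0 were higher (against 4.2%) and 2 lower (5.41%, against 6.49%), with ratios from 0.735 to 1.24. These shares are near or below the background. The median log2 ratio of the 37 genes was 0.03 in KD, against -0.05 over all tested genes, and 0.01 in Q153R, against -0.02.

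Pde1c was lower in both pools, with the lowest KD ratio of the 37 genes, while Pde11a had the lowest in Q153R. Pde1c stood at 124 CPM (118 to 131) in Ctrl, 81.0 CPM (74.9 to 87.5) in KD and 99.4 CPM (92.4 to 107) in Q153R, so the 3 counting intervals did not overlap. The ratio to Ctrl was 0.652 (0.593 to 0.717) in KD and 0.7999 (0.730 to 0.876) in Q153R, the second barely past the limit for a call. Within marker classes it was 0.678 and 0.802, the second not in the called range. In neurons of no class the level was 108, 68.1 and 76.4 CPM. The Crh class ran the other way in KD, on 13 UMIs in Ctrl and 17 in KD (45.1 CPM, 24.0 to 77.1, and 122.5 CPM, 71.4 to 196). The Oxt class ran the other way in Q153R, at 345 CPM (280.4 to 419) on 100 UMIs against 233 CPM (193 to 279) on 119 UMIs in Ctrl, a ratio of 1.48, and these intervals did not overlap. In the GABA class, which was left out of the comparison, the KD ratio was 0.375 (0.143 to 0.840) on 7 UMIs in KD and 44 in Ctrl. A single Ctrl nucleus held 13 of those 44, which the counting interval does not take into account.

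The pools also differed in sex and depth. Of these neurons, 66.6% in Ctrl, 80.5% in KD and 47.4% in Q153R were nuclei with Xist and no Y-linked UMI, and the median nucleus held 5455, 6067 and 4708.5 UMIs. Among nuclei with Xist alone the Pde1c ratios were 0.662 (0.592 to 0.740) in KD and 0.736 (0.645 to 0.837) in Q153R. After thinning to 2000 UMIs they were 0.667 and 0.868, the second no longer in the called range.

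Prkg2 was higher in KD, at 28.8 CPM (25.2 to 32.7) against 19.6 CPM (16.98 to 22.5) in Ctrl, a ratio of 1.47 (1.21 to 1.78). It was 1.38 within marker classes and 1.41 (1.13 to 1.75) among nuclei with Xist alone. In Q153R it stood at 23.6 CPM, and the interval of the ratio, 1.20 (0.979 to 1.48), includes 1. Adcy1 stood at 25.9 CPM in Ctrl and 32.8 CPM in KD (1.27, 1.06 to 1.51). Adcy7 stood at 26.4 and 20.8 CPM (0.790, 0.648 to 0.961). Among nuclei with Xist alone these 2 ratios were 1.09 (0.884 to 1.34) and 0.906 (0.716 to 1.14), both inside the limits for a call. With the stricter hashtag rule Adcy7 turned to 1.03. In Q153R, Pde11a stood at 10.6 CPM against 14.4 CPM in Ctrl (0.735, 0.554 to 0.970), and at 0.779 (0.503 to 1.18) among nuclei with Xist alone. How much the mix of sexes contributed to the pool differences beyond these values was not tested.

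The remaining low and high ratios stayed inside those limits. In KD these were Prkar1a at 83.5 CPM in Ctrl and 73.6 CPM in KD (0.881, 0.792 to 0.980), Pde1a at 352 and 328 CPM (0.933, 0.887 to 0.981) and, with intervals that include 1, Pde4a (0.913), Pde8a (1.21), Gucy1a1 (1.19) and Adcy10 (1.18). In Q153R they were Adcy8 at 141 CPM in Ctrl and 154 CPM in Q153R (1.09, 1.01 to 1.18), Pde9a at 45.8 and 52.5 CPM (1.15, 1.001 to 1.31) and, with intervals that include 1, Pde1b (1.24), Adcy6 (1.12), Adcy7 (0.933), Pde3b (0.934) and Gucy1b1 (0.926). Over all 37 genes the interval of the ratio left out 1 in 10 in KD and in 8 in Q153R. The intervals cover counting error only, and no such share is at hand for all tested genes. These counts are therefore not read as a difference between genotypes. Pde4b, among the most deeply counted, stood at 1314, 1498 and 1394 CPM in the 3 pools, a KD ratio of 1.14 (1.11 to 1.17).

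Of the related genes, the PKA anchors Akap13, at 63.3 CPM in Ctrl and 49.5 CPM in KD (0.782, 0.689 to 0.887), and Akap10, at 92.2 and 72.7 CPM (0.788, 0.710 to 0.875), were lower in KD, as were Npr3 (0.658, 0.490 to 0.876), the CREB coactivator Crtc2 (0.709, 0.518 to 0.963) and Cngb1 (0.797, 0.577 to 1.09). The anchor Akap5 was higher (1.37, 0.939 to 2). In Q153R, Akap1 (0.788, 0.620 to 0.997) and Rapgef3 (0.653, 0.426 to 0.986) were lower, and Crem was higher at 71.2 CPM against 54.2 CPM in Ctrl (1.31, 1.17 to 1.48). No G protein alpha subunit was called in either pool.

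**Figure D4:**
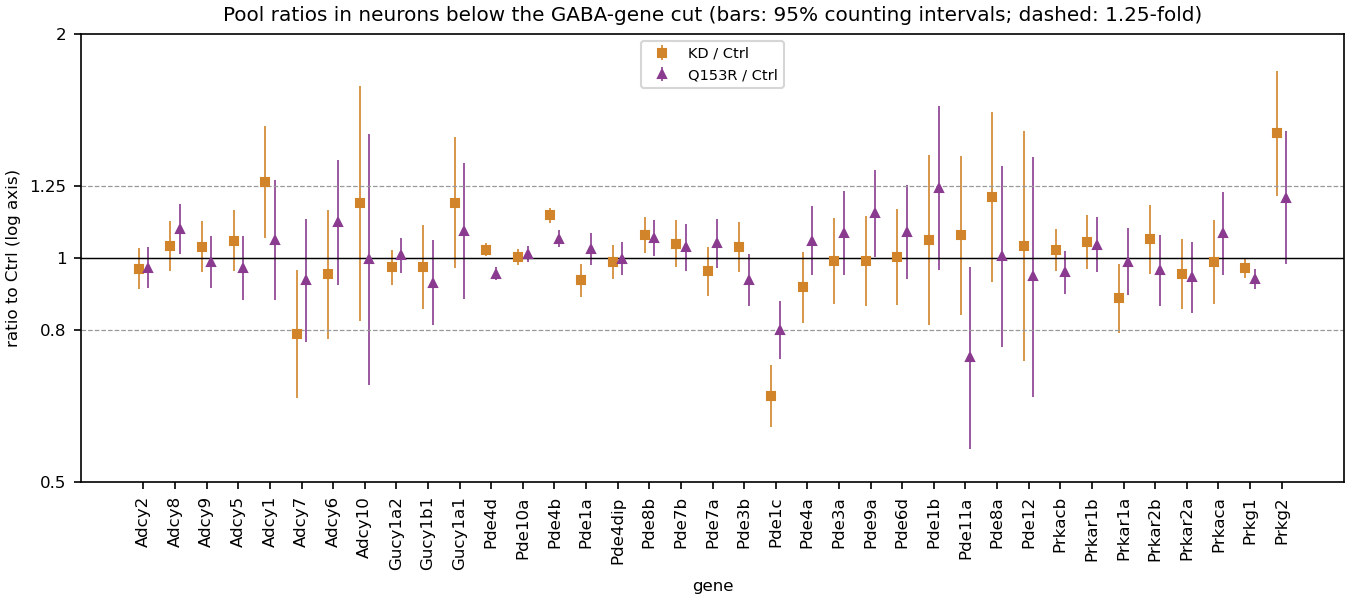
Ratio of the KD pool and of the Q153R pool to Ctrl for each gene with at least 100 UMIs (log axis), over neurons below the GABA cut, with 95% counting intervals as bars and dashed lines at the limits for a call (25% higher, 20% lower). Pde1c lies lowest in KD at 0.652 and Prkg2 highest at 1.47, and most other points lie between the dashed lines.

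Whether the genes ran together within single neurons was described over 4435 neurons thinned to 2000 UMIs. Among the 351 pairs of 27 genes, 344 had a Pearson r (log2 scale) below 0.1 in size. All points share 1 library, and sparse counts hold r close to 0. The most negative pair was Prkg1 and Pde10a at -0.307, with -0.305, -0.300 and -0.312 in the Ctrl, KD and Q153R pools. In neurons of no class, r was -0.344. In the classes it ranged from -0.378 in the Sst class to 0.114 in the Avp class. Summed over nuclei with 0, 1, 2 to 4, and 5 or more Prkg1 UMIs (1816, 756, 1315 and 548 neurons), Pde10a stood at 2677 CPM (2624 to 2731), 1353 CPM (1295 to 1412), 1014 CPM (976 to 1053) and 943 CPM (886 to 1002). The step from 0 to 1 UMI was present in each pool, from 2667 to 1432 CPM in Ctrl, from 2773 to 1385 CPM in KD and from 2612 to 1221 CPM in Q153R. The neighbouring levels at 2 to 4 and at 5 or more did not separate beyond their intervals.

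Adcy8 and Pde4b had the highest r, 0.217 over all neurons and 0.101 in neurons of no class. In the Avp class itself, where both were high, r was 0.0744. Pde4b stood at 1096 CPM (1072 to 1120) in nuclei with 0 Adcy8 UMIs, 1970 CPM (1892 to 2051) with 1 and 2569 CPM (2431 to 2712) with 2 to 4 (3569, 604 and 255 neurons). Only 7 neurons had 5 or more, none of them from the KD pool. Pde9a and Pde10a, both high in the Crh class, had r of 0.203 over all neurons and 0.193 in neurons of no class, so the relation was as large outside the marker classes. Pde10a stood at 1574, 3178 and 4831 CPM in nuclei with 0, 1 and 2 to 4 Pde9a UMIs (4027, 348 and 59 neurons). Prkg1 and Pde9a had r of -0.134.

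**Figure D5:**
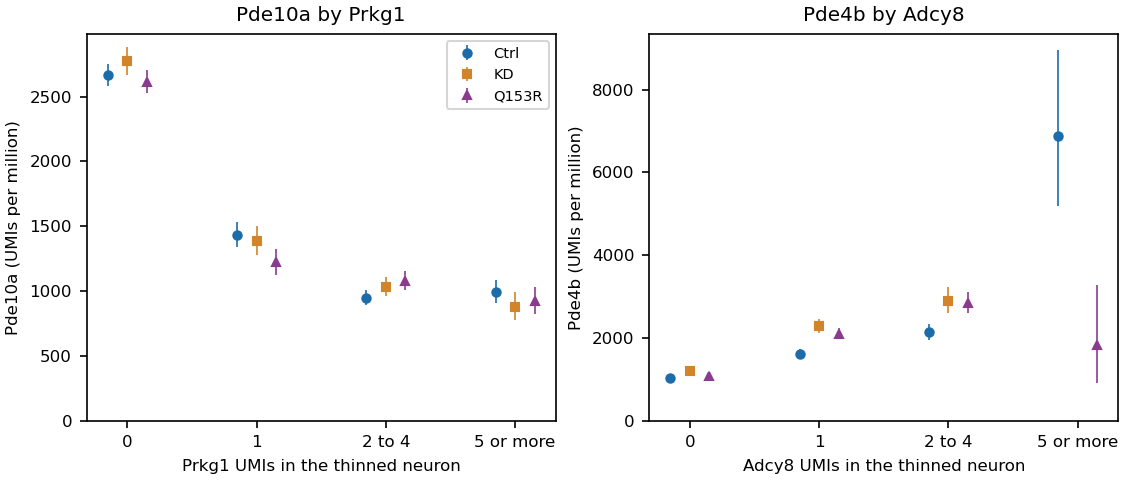
Left, Pde10a (CPM) in neurons thinned to 2000 UMIs and grouped by their number of Prkg1 UMIs, for each pool. Right, Pde4b grouped by Adcy8 UMIs, where the last bin holds 7 neurons of 2 pools. Bars are 95% counting intervals, and Pde10a drops from 2677 CPM over all neurons without a Prkg1 UMI to 943 CPM at 5 or more.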

How the data were processed

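The deposited values are raw UMI counts of 31053 genes and 3 hashtags in each barcode, made by the authors with Cell Ranger. Version 6.0.0 and build mm10 come from the submitters' processing notes, whereas the header of the matrix has version 7.0.0. Which gene annotation was counted, and whether intron reads were included, is not given in the sources used here. GENCODE vM21 (GRCm38) held 31011 of the 31053 gene IDs and all 52 of the genes described. A file was used for 1 of the 2 deposited samples.

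Barcodes needed at least 500 genes and under 5% mitochondrial UMIs. A nucleus took the hashtag whose count alone reached its cut (Ctrl 105, KD 61, Q153R 37), and nuclei with more than 1 hashtag were removed as doublets. No doublet caller was run, so doublets within a pool remain. Nuclei with at least 3 UMIs and 1000 CPM of glial, vascular and ependymal markers were called non-neuronal. Class cuts were 2000 CPM and 5 UMIs (Oxt, Avp), 1000 and 3 (Sst), 400 and 2 (Trh, Crh), and 600 and 3 (GABA genes), and nuclei over more than 1 cut were kept out of the classes.

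Levels are summed UMIs per 1000000 with exact Poisson intervals, ratios have exact conditional binomial intervals and shares have Clopper-Pearson intervals, all at 95%. A ratio needed at least 100 UMIs (over all neurons for classes, over the 2 pools for pools), and was called past 1.5-fold in the same direction in all 3 pools, or over 25% higher or 20% lower between pools. The class rule was run on simulated Poisson counts that had no added spread between nuclei or pools. That run cannot give the rate of false calls in these data. Genes named by class are the called ones, up to the 5 highest and 5 lowest ratios, and by pool the 5 highest and 5 lowest. Beyond these, the lower calls of Pde4a in the Avp class and of Pde3a and Pde7b in the Crh class were named. Other genes given values (Pde4b by pool, Pde4d in the Crh class, the pairs) were chosen after their values were seen. Of the other effectors and of the G protein alpha subunits, 1 called gene each is counted but not reported here. The genes, related lists and class markers were chosen with earlier results of these data known. Alternatives covered marker cuts, library size, nuclei over 15000 UMIs, weighting, thinning to 2000 UMIs, scaling, the UMI minimum, a stricter hashtag rule (lower limits for the other tags), nuclei with at least 3 Xist UMIs, Mantel-Haenszel ratios within classes and leaving out each pool. Python 3.11.15, numpy 2.4.6, scipy 1.17.1, pandas 2.3.3 and matplotlib 3.10.9 were used.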

Additional observations from a re-analysis of the deposited data

How the results depend on the processing

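Counts per library limit what can be seen: a gene near 100 UMIs has few UMIs in any 1 class, which is where the lower calls on 1 to 3 UMIs arose. No paired analysis was possible because each genotype is 1 pool in 1 library and no test was run. Of the 45 class calls, the stricter hashtag rule (2206 neurons) and thinning to 2000 UMIs (4435 neurons) kept 32 each, doubled marker cuts kept 38 and halved cuts 37. The 17 higher class calls became 14 to 20 under the settings tried, and leaving out each pool gave 18 to 20 higher and 35 to 39 lower calls. The 28 lower class calls became 50 with no UMI minimum and 16 with at least 1000 UMIs, a setting chosen after seeing the data, as was median-of-ratios scaling of each class.

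In KD, the 2 higher calls became 1 among Xist nuclei and 1 within classes, 5 at 30 UMIs and 7 with no minimum. The 2 lower calls became 1 with GABA-gene nuclei included, 1 among Xist nuclei, 1 with equal weights, 1 with median-of-ratios scaling, 1 after thinning, 1 with the stricter hashtag rule and 8 with no minimum. Higher and lower KD calls together numbered 4 with equal weights, after thinning, with median-of-ratios scaling and with the stricter hashtag rule, so other genes were called higher there. Of the 4 main KD calls, the stricter rule kept 2 and each of the other 3 settings kept 3. In Q153R, the 0 higher calls became 1 with GABA-gene nuclei included, 1 among Xist nuclei, 1 with equal weights, 1 with median-of-ratios scaling, 1 without nuclei over 15000 UMIs, 2 with the stricter hashtag rule, 2 after thinning, 3 at 30 UMIs and 6 with no minimum. The 2 lower calls became 1 with GABA-gene nuclei included, 1 with equal weights, 1 with median-of-ratios scaling, 1 without nuclei over 15000 UMIs, 1 after thinning, 1 within classes, 4 with the stricter hashtag rule and 8 with no minimum. With equal weights and after thinning, 0 of the 2 main Q153R calls (Pde1c and Pde11a) were kept, so the lower call there was another gene. Ratios that changed side were Adcy10 in KD (0.949 among Xist nuclei), Adcy7 in KD (1.03 with the stricter hashtag rule), Adcy7 in Q153R (1.02 among Xist nuclei, 1.005 with the stricter hashtag rule), Pde8a in KD (0.980 after thinning) and Pde9a in Q153R (0.988 with the stricter hashtag rule). A lower UMI minimum admits more genes by construction, and the cause of the other changes was not tested. Of the values recomputed for single genes, 695 stayed within the counting interval of the reported ratio, 73 moved beyond it on the same side of 1 and 6 crossed 1.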

Other observations

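Some levels differed between pools within a class, in genes picked after all class-by-pool values were seen, so they are values with no test. Adcy8 in the Trh class stood at 129 CPM (100.1 to 163) in Ctrl, 37.5 CPM (16.2 to 73.8) in KD and 49.8 CPM (30.4 to 77.0) in Q153R, on 69, 8 and 20 UMIs. Pde10a in the same class stood at 1812 CPM (1700 to 1930), 1072 CPM (938 to 1221) and 1318 CPM (1208 to 1435). Both were highest in Ctrl, while Pde10a over all neurons stood at 1528, 1536 and 1544 CPM. Pde4b in the Oxt class was highest in KD, at 5469 CPM (5195 to 5753) against 3547 CPM (3385 to 3714) in Ctrl and 3801 CPM (3580 to 4032) in Q153R. Prkg1 in the GABA class was lowest in Q153R, at 782 CPM (667 to 911) against 1314 CPM (1230 to 1401) in Ctrl and 1200 CPM (1079 to 1331) in KD. These classes held 36 Trh-class nuclei and 35 Oxt-class nuclei in KD and 46 GABA-class nuclei in Q153R.

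Over all neurons, single nuclei weighed on few genes. Of the 370 Pde11a UMIs over neurons, 1 KD nucleus of no class held 30 (8.11%). Within classes they weighed more on some lower calls. A single nucleus held 11 of the 32 Pde7b UMIs in the Crh class and 14 of the 49 in the Avp class. For Prkg1 it held 16 of 74 in the Crh class and 23 of 143 in the Avp class, and for Pde1c 13 of 63 in the GABA class.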
